A study of Mus musculus with 14 samples.

Results

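The genes described here encode the proteins that fill, dock and fuse synaptic vesicles: synaptophysin, the synapsins, the SV2 proteins, the synaptotagmins, the SNARE proteins of the syntaxin, SNAP and VAMP families, the syntaxin-binding proteins and the complexins. They were chosen by gene name, from the families Syt, Syn, Vamp, Stx, Stxbp, Sv2, Cplx, Snap and the single gene Syp, with 1 synaptotagmin left out. Earlier results of these data were known when the choice was made. The choice gave 60 genes in both count tables, of 26570 genes listed for the basal experiment and 25933 for the learning experiment.

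A synaptic vesicle fuses with the presynaptic membrane when a VAMP on the vesicle winds into a helical bundle with a syntaxin and a SNAP protein on the target membrane. Syntaxin-binding proteins guide or block this assembly, complexins clamp and promote it, and synaptotagmins with calcium-binding domains trigger it when calcium enters the terminal. Synapsins tether vesicles in the reserve pool, and other VAMPs, syntaxins and SNAPs serve the Golgi, endosomes and lysosomes of all cells. In the hippocampus these proteins set how reliably each synapse releases transmitter, and loss of presynaptic proteins is a known feature of tauopathies.

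RNA-seq was carried out on bulk dorsal hippocampus of male mice on a C57BL6/J background aged 8 months, in 14 libraries that fall into 6 groups. In the basal experiment, resting mice without training were compared, as WT basal (n = 3) and TAU basal (n = 2). TAU stands for the THY-Tau22 line, heterozygous mice that carry human Tau with the changes G272V and P301S under the Thy1.2 promoter, which restricts the transgene to neurons. In the learning experiment, WT VEH_HC mice (n = 3) received saline and stayed in the home cage. WT VEH mice (n = 2) received saline and learned the hidden platform of the Morris water maze, which tests spatial memory. TAU VEH mice (n = 2) were trained after injection of CSP, carbon nanospheres without a drug, and TAU MOL mice (n = 2) after CSP-TTK21, the same spheres loaded with a small molecule that activates the histone acetyltransferases p300 and CBP. WT VEH and TAU VEH thus differed in genotype and in vehicle, and these cannot be told apart. Each group is small and from 1 transgenic line, and in bulk tissue fewer cells of a type and less RNA per cell cannot be told apart.

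Total counts ran from 28639121 to 37681155 per basal library and from 24693713 to 52180305 per learning library. Thy1, the gene whose promoter drives the transgene, read 794.8 to 873.7 CPM (counts scaled to the size of the library, with TMM factors) in WT basal against 2352 and 1842 in TAU basal. It read 786.4 to 913.5 CPM in the WT learning libraries and 1805 to 2109 in the TAU ones, so every library fell with its genotype label. Reads of the native gene and any from Thy1 sequence in the transgene cannot be told apart. Mouse Mapt was not called in any TAU comparison (log2 fold change 0.16, 0.07 and 0.09), and the activity-regulated gene Arc rose with training (1.47) and fell by 1.74 in TAU basal. Markers of the choroid plexus, the epithelium of the ventricles next to the hippocampus, summed to 3143 and 2190 CPM in WT VEH, far above the home-cage mice (159.6 to 415.2), TAU VEH (462.6 and 544.1) and TAU MOL (1183 and 1071). In the basal experiment TAU basal replicate 2 held 1993 CPM of them and the other 4 libraries 595.9 to 713.5. The libraries also differed in how counts followed GC content: Spearman's rho over genes ran from -0.62 to -0.40 in the 4 TAU learning libraries, from 0.09 to 0.46 in the WT learning libraries, and from -0.60 to 0.48 in the basal ones, with TAU basal replicate 2 lowest.

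For the promoters, the 300-base windows that RefSeq (GRCm38.p6) gives from 250 bases before to 50 after each start were searched on both strands for TGACGTCA, the cAMP response element bound by the CBP partner CREB, for its core TGACG, which lies within it, and for TTCAGCACC and GGACAGC, the left and right parts of the site of REST, the repressor of neuronal genes. Windows were at hand for 45 of the 60 genes (59 windows). The full element was in 1 of the 59 windows (1.695%, against 1.79% of all 32851 windows) and the core in 11 (18.64% against 20.81%). The left REST part was in 1 window (1.695% against 0.3714%) and the right part in 4 (6.78% against 6.56%), those of Stx5a and Syt6. The windows of Syn1 and Cplx1 are shown because both genes were lower in trained TAU mice and hold these strings, with the matched bases in capitals. Both windows lie on the minus strand, Syn1 at chrX:20920869-20921168 and Cplx1 at chr5:108549978-108550277.
Syn1: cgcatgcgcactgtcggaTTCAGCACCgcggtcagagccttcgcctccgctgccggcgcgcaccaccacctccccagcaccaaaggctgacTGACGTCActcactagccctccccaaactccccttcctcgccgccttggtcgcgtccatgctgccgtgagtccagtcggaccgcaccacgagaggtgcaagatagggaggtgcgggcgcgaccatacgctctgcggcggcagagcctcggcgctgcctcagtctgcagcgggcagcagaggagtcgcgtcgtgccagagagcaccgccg
Cplx1: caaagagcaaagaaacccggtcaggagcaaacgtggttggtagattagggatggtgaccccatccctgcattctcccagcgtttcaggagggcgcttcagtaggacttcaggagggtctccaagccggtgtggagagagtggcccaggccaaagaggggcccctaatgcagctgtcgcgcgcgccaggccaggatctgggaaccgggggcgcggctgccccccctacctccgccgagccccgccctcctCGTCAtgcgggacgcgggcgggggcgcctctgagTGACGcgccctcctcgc
In Syn1 the full element starts at position -159 from the start site and the left REST part at -232. In Cplx1 the core starts at position -1 on the opposite strand and at 33 on the gene's own strand. A match of letters is a description of the window and not a measured binding site, and for Vamp2 no window was at hand.

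Levels between genes were compared as CPM per kb of exon. In WT VEH_HC the highest member was Cplx2, the complexin of excitatory forebrain terminals, at 574.2 CPM per kb. Next among the members named here came Vamp2, the vesicle SNARE of fast release, at 549.8, Cplx1 at 430.0, Syn1 at 358.8, Syp at 297.0, Snap25 at 247.0, Syn2 at 229.9, Syt11 at 203.6, Sv2a at 181.2, Syt1 at 169.2 and Snap47 at 108.8. In all, 13 members lay above 100 CPM per kb, and 9 lay under 1. SNAREs of the fusion complex, Vamp2 and Snap25, were thus among the leading members, with their regulators Cplx1, Cplx2 and Syt1. The median member lay between 11.44 and 14.88 CPM per kb in the 6 groups. Vamp2 led in WT basal (377.5), TAU basal (350.0) and WT VEH (527.6), and Cplx2 in TAU VEH (462.2) and TAU MOL (426.0). The order of Vamp2 and Cplx2 rests on the length used. All exons of Vamp2 together hold 3809 bases and its longest transcript 2205, where Cplx2 has 4925 by both. Per kb of the longest transcript Vamp2 would lie higher, and the order was not recomputed that way. The tables were scaled apart, so levels of the basal and learning groups are not compared. Summed over the 60 genes, the members took 15470 to 16900 CPM in WT basal, 15930 and 16550 in TAU basal, and 19940 to 21330 in WT VEH_HC. They took 17780 and 19090 CPM in WT VEH, 16960 and 16750 in TAU VEH, and for TAU MOL 16120 and 16590. The 4 TAU learning libraries were thus below the 2 WT VEH libraries, which were below the 3 WT VEH_HC libraries.

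**Figure D1:**
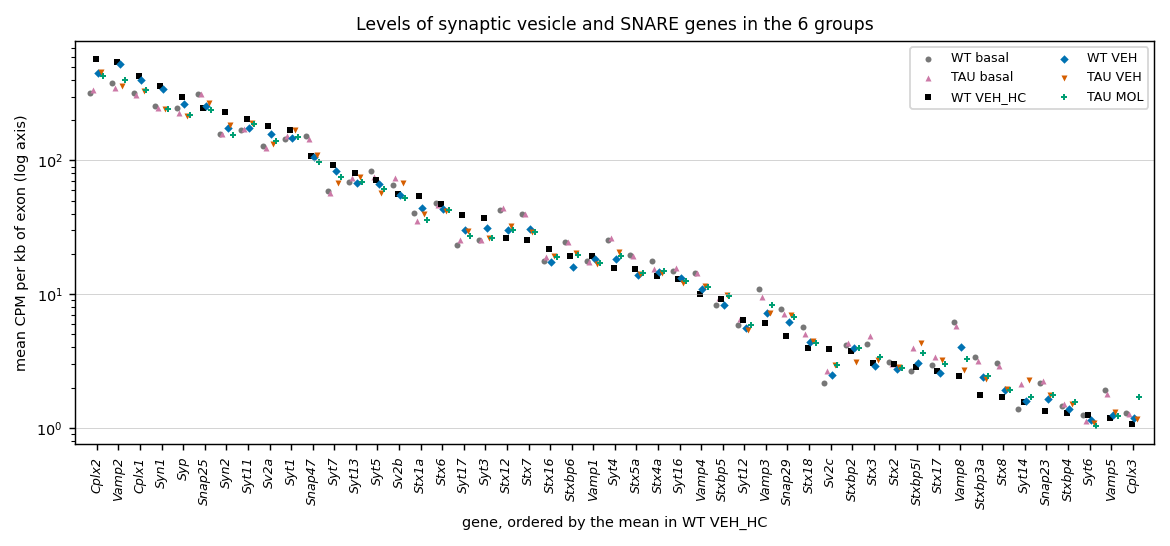
Mean level of the members in the 6 groups, in CPM per kb of exon on a log axis, for genes with at least 1 CPM per kb in WT VEH_HC. Cplx2, Vamp2 and Cplx1 lead in WT VEH_HC, at 574.2, 549.8 and 430.0 CPM per kb.

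Cplx4, Stx11, Stx19 and Syt8 had too few reads to be tested, with 0 to 11 counts per library, and Stxbp3b was tested in the learning experiment only, on 1 to 12 counts. Any reads that match Stxbp3a and Stxbp3b equally would be left out, because only unique reads were counted. In 6 members more than 10% of the exon bases lie in another gene as well: Snap47 (11.6%, Jmjd4), Stx18 (13.7%, Nsg1), Syn3 (14.1%, Timp3), Syp (16.8%, Gm14703), Syt12 (17.2%, A930001C03Rik) and Syt4 (14.7%, Gm16871). The libraries did not mark the strand, so reads there cannot be assigned with certainty to either gene. A gene was called when edgeR's quasi-likelihood test gave a Benjamini-Hochberg adjusted p under 0.05 over all genes tested and an absolute log2 fold change above 0.2.

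At rest, TAU and WT mice were compared to see whether the transgene alone was accompanied by other levels of these genes. No member was called in either direction, against a background of 0.00613% of 16324 genes called higher and 0.0184% called lower. Of the 55 members tested, 2 had an unadjusted p under 0.05 (802 of all genes did), and DESeq2 called 0 members as well (27 genes higher and 13 lower in all). The median log2 fold change was -0.011 over the members and -0.007 over all genes, and the libraries of the groups did not overlap for 2 members higher and 2 lower in TAU basal, where 9.01% and 9.49% of all genes were apart in these directions.

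The transcripts of Vamp2, Snap25 and Syn1 were not called between the 2 genotypes, and with SE of 0.14 to 0.16 moderate changes could be missed. Vamp2 read 1425, 1559 and 1330 CPM in WT basal against 1482 and 1184 in TAU basal (log2 fold change -0.11, SE 0.14). Snap25, the SNAP of the neuronal plasma membrane, read 2227, 2213 and 1976 CPM against 1861 and 2376 (-0.01, SE 0.14). Syn1, the main vesicle tether, read 906.7, 904.4 and 741.0 CPM against 923.8 and 695.2 (-0.07, SE 0.16). For all 3 genes the groups overlapped, and TAU basal replicate 2 was at one end of the range. Stx1a (-0.18), Vamp1 (-0.02), Syp (-0.13), Syt1 (0.08), Syt7 (-0.07), Syn2 (0.01), Sv2a (-0.04), Sv2b (0.16), Cplx1 (-0.04) and Cplx2 (0.08) did not pass either.

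The members with an unadjusted p under 0.05 were Syt14, a synaptotagmin without calcium binding, and Stxbp5l, a tomosyn, which blocks SNARE assembly. Syt14 read 2.783, 2.069 and 3.111 CPM in WT basal against 3.939 and 4.242 in TAU basal (log2 fold change 0.62, SE 0.22, adjusted p = 0.90). Stxbp5l read 28.72, 15.37 and 23.54 CPM against 26.83 and 40.61 (0.58, SE 0.24, adjusted p = 0.90), and there the groups overlapped. The lowest fold change, -0.72 for Syt9, rests on WT basal replicate 3, which read 12.91 CPM where the other 4 libraries read 3.458 to 4.646.

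Training was addressed by comparing WT VEH with WT VEH_HC mice. Of 56 members, 2 were called higher (3.57%) and 5 lower (8.93%), where 5.35% of the 16820 genes tested were called higher and 3.05% lower. The 5 lower ones were Sv2c and Syn2 of the vesicle membrane, the complexin Cplx2, the calcium-binding synaptotagmin Syt3 and the Golgi and endosome syntaxin Stx16. The 2 higher ones were Vamp8 and Snap29, SNAREs of endosomes, lysosomes and autophagosomes. The median log2 fold change was -0.076 over the members and -0.003 over all genes. An unadjusted p under 0.05 was found for 25 of the 56 members and for 4683 of the 16820 genes. The libraries of the 2 groups were apart for 14 members higher and 20 lower in WT VEH. Over all 16820 genes, 3865 were apart higher and 3499 lower.

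Of the 7 vesicle membrane and vesicle-binding proteins, 2 were called lower. Sv2c, an SV2 isoform of low level here, read 11.41 and 10.38 CPM in WT VEH against 15.36, 18.93 and 17.17 in WT VEH_HC (log2 fold change -0.66, SE 0.10, adjusted p = 0.0066), a fold of 0.635. Syn2, the second synapsin, read 913.0 and 1085 CPM against 1295, 1440 and 1194 (-0.39, SE 0.089, adjusted p = 0.0272). Both trained mice were below all 3 home-cage mice in each gene. Syp (-0.17), Syn1 (-0.07), Syn3 (-0.31), Sv2a (-0.19) and Sv2b (-0.02) did not pass.

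Among the other families single genes moved. Cplx2 read 2149 and 2329 CPM in WT VEH against 2604, 3179 and 2701 in WT VEH_HC (log2 fold change -0.34, SE 0.092, adjusted p = 0.0451). Syt3 read 94.48 and 100.5 CPM against 119.6, 111.8 and 115.0 (-0.24, SE 0.068, adjusted p = 0.0486). Stx16 read 68.23 and 70.82 CPM against 92.21, 91.46 and 75.33 (-0.31, SE 0.087, adjusted p = 0.0491). These 3 genes passed narrowly, although in each the trained and home-cage libraries did not overlap. Vamp8 read 8.605 and 10.09 CPM in WT VEH against 4.806, 5.438 and 6.568 in WT VEH_HC (0.73, SE 0.15, adjusted p = 0.0203), a fold of 1.664. Snap29, which takes part in the fusion of autophagosomes, read 21.13 and 21.64 CPM against 17.83, 15.69 and 16.45 (0.36, SE 0.075, adjusted p = 0.0198).

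No neuronal exocytosis SNARE was called after training, with Snap25 at 0.05, Vamp2 at -0.06, Vamp1 at -0.06 and Stx1a at -0.29 (adjusted p = 0.0728). The same was true of the 8 syntaxin-binding proteins, with Stxbp5 at -0.15 and Stxbp6 at -0.29, and of the 8 other synaptotagmins tested, with Syt4 at 0.22, Syt11 at -0.21, Syt12 at -0.20 and Syt17 at -0.37. Syt1, the calcium sensor of fast release, read 1165 and 1302 CPM against 1497, 1400 and 1336 (-0.19, SE 0.070, adjusted p = 0.0986), and Syt7 stood at -0.16. Stx3, Vamp3 and Snap47 stood at -0.08, 0.27 and -0.04, and Cplx1 and Cplx3 at -0.09 and 0.15.

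All 14 choroid plexus markers were called higher in WT VEH. They summed to 3143 and 2190 CPM there and to 159.6 to 415.2 in WT VEH_HC. Their mean as a covariate therefore cannot be told apart from training. With it in the fit no member and no gene passed, and Syn2, Cplx2 and Stx16 changed sign (0.33, 0.15 and 0.41). The part of the choroid plexus markers in the result was not tested otherwise. The 7 neuronal markers tested were all below 0 without being called (median -0.14), summing to 2890 and 3066 CPM in WT VEH against 3204 to 3434 in WT VEH_HC. WT VEH_HC replicate 2, the highest library for Sv2c, Syn2 and Cplx2, held 3418 CPM of oligodendrocyte markers where the other home-cage libraries held 6863 and 6000. The part of these markers was not tested. With library size alone as the scaling the split was 3 members higher and 3 lower, and 1278 higher and 434 lower over all genes. The number of members called was 0 without WT VEH replicate 1, 3 without WT VEH replicate 2, 5 without WT VEH_HC replicate 1, 4 without replicate 2 and 17 without replicate 3.

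**Figure D2:**
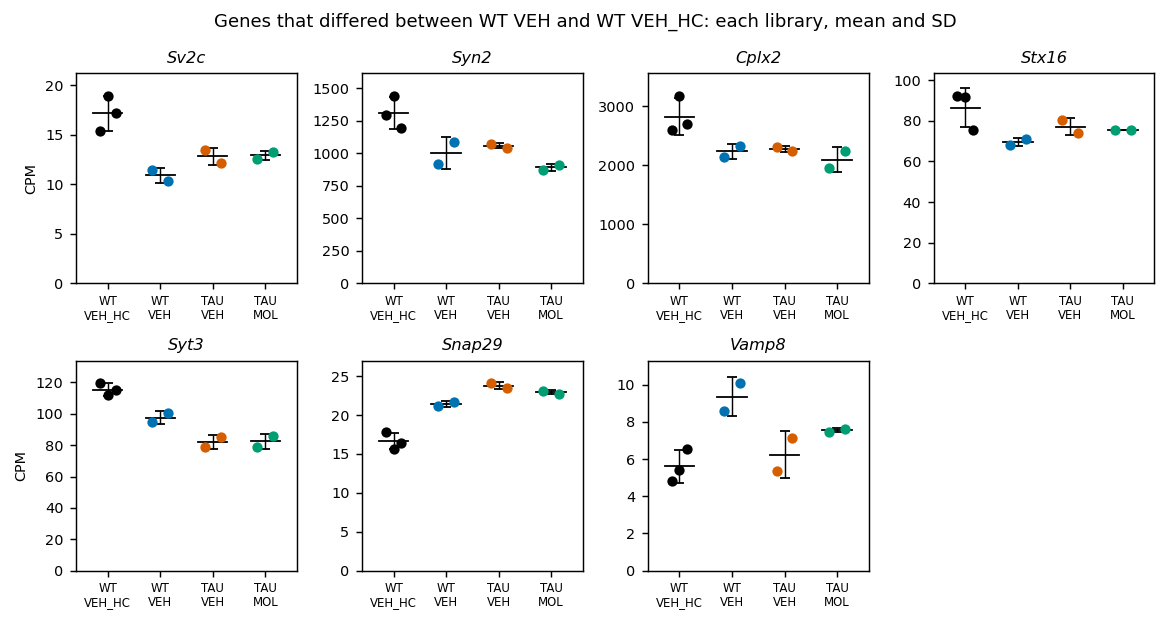
CPM of the 7 members called between WT VEH and WT VEH_HC, with 1 point per library, a line at the group mean and bars of 1 SD. In each gene the trained and home-cage libraries are apart: Vamp8 and Snap29 are higher in WT VEH, and Sv2c, Syn2, Cplx2, Stx16 and Syt3 are lower.

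Trained TAU VEH and WT VEH mice were compared to ask how the transcriptome of learning TAU mice differs. Of 56 members, 3 were called higher (5.36%) and 9 lower (16.1%), against a background of 3.61% of 16820 genes higher and 10.8% lower. The lower ones included the abundant presynaptic transcripts Vamp2 and Syn1, and further Syp, Cplx1, Sv2a, Syt3 and Vamp8. The 3 higher ones were the tomosyns Stxbp5l and Stxbp5 and the autophagosome syntaxin Stx17. The median log2 fold change was 0.003 over the members and 0.004 over all genes. An unadjusted p under 0.05 was found for 20 of the 56 members and for 4566 of the 16820 genes. The libraries of the 2 groups were apart for 19 members higher and 18 lower in TAU VEH. Over all 16820 genes, 4797 were apart higher and 4944 lower, so separation of the libraries was common.

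Among the neuronal exocytosis SNAREs, Vamp2 was called lower. Vamp2 (mm9 chr11:68901992-68905886, plus strand) read 2020 and 1999 CPM in WT VEH against 1434 and 1304 in TAU VEH (log2 fold change -0.55, SE 0.077, adjusted p = 0.00127), a fold of 0.681. The TAU VEH libraries were below the WT VEH libraries by several times the distance within a group. Its partner in the same complex, Snap25 (chr2:136539189-136608164, plus strand), read 1667 and 1799 CPM in WT VEH against 1858 and 1826 in TAU VEH (0.09, SE 0.069, adjusted p = 0.466). Stx1a, a syntaxin of the presynaptic membrane, and Vamp1, the second vesicle VAMP, stood at -0.14 and -0.12 and did not pass.

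Among the syntaxin-binding proteins, both tomosyns were called higher. Stxbp5l (chr16:37115028-37385048, minus strand) read 27.10 and 25.16 CPM in WT VEH against 36.94 and 36.68 in TAU VEH (log2 fold change 0.49, SE 0.073, adjusted p = 0.00158), a fold of 1.409. Stxbp5 read 109.0 and 107.7 CPM against 133.5 and 122.2 (0.24, SE 0.072, adjusted p = 0.0463). The groups did not overlap in either gene. Stxbp6, which competes with VAMPs for the SNARE complex and is rich in dentate granule cells, stood at 0.36 and did not pass (adjusted p = 0.19).

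Of the 7 vesicle membrane and vesicle-binding proteins, 3 were called lower. Syn1 (chrX:20437637-20498130, minus strand) read 1097 and 1166 CPM in WT VEH against 811.9 and 795.9 in TAU VEH (log2 fold change -0.49, SE 0.076, adjusted p = 0.00179), a fold of 0.711. Sv2a, a glycoprotein of all synaptic vesicles, read 724.3 and 751.8 CPM against 612.2 and 610.5 (-0.27, SE 0.060, adjusted p = 0.0105). Syp, a major vesicle membrane protein, read 1265 and 1494 CPM against 1102 and 1159 (-0.29, SE 0.082, adjusted p = 0.0362). In each of the 3 genes both TAU VEH libraries were below both WT VEH libraries, least clearly in Syp, where the WT VEH libraries differed most and some exon bases belong to a second gene. The paralogues did not pass: Syn2 (0.08), Syn3 (-0.06), Sv2b (0.28, adjusted p = 0.0791) and Sv2c (0.24).

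Of the complexins, Cplx1 was called lower and Cplx2 was not. Cplx1 read 837.8 and 925.0 CPM in WT VEH against 703.9 and 741.5 in TAU VEH (log2 fold change -0.29, SE 0.072, adjusted p = 0.0200), whereas Cplx2 stood at 0.02 and Cplx3 at -0.05. Of the 7 calcium-binding synaptotagmins only Syt3 was called, with 94.48 and 100.5 CPM against 78.89 and 85.18 (-0.25, SE 0.075, adjusted p = 0.0445). Syt1 read 1165 and 1302 CPM against 1392 and 1416 (0.19, SE 0.076, adjusted p = 0.135), and Syt7 598.1 and 563.0 against 511.4 and 442.0 (-0.28, SE 0.088, adjusted p = 0.0524). None of the 8 other synaptotagmins tested was called, with Syt4 at 0.18, Syt11 at 0.11, Syt12 at -0.04 and Syt17 at -0.04.

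Among the 18 other SNAREs tested, 1 was called in each direction. Vamp8, a SNARE of late endosomes, read 8.605 and 10.09 CPM in WT VEH against 5.350 and 7.133 in TAU VEH (log2 fold change -0.60, SE 0.17, adjusted p = 0.0378). Stx17, the syntaxin that fuses autophagosomes with lysosomes, read 14.48 and 15.84 CPM against 18.28 and 19.89 (0.33, SE 0.092, adjusted p = 0.0337). Vamp8 is a low-level gene whose libraries within a group differed more than those of the presynaptic genes. Stx3 (0.14), Vamp3 (0.00) and Snap47 (0.06) did not pass.

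**Figure D3:**
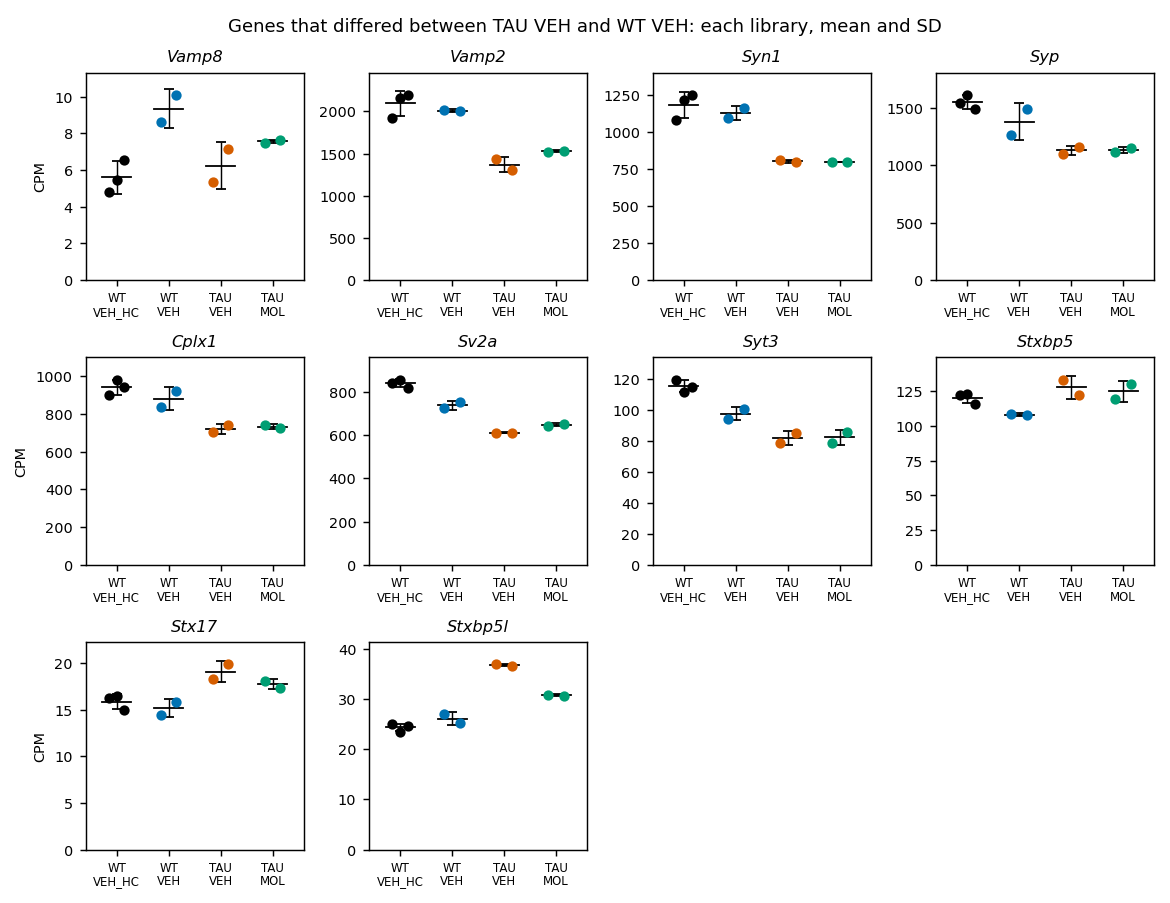
CPM of members called between TAU VEH and WT VEH in the 4 learning groups, with 1 point per library, a line at the group mean and bars of 1 SD. Vamp2 falls from 2020 and 1999 CPM in WT VEH to 1434 and 1304 in TAU VEH, with TAU MOL at 1519 and 1534.

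The same 2 groups differed in measures beside these genes. The 14 choroid plexus markers were all called lower in TAU VEH. Of the 5 markers of CA1 pyramidal cells 4 were called lower, summing to 1069 and 993.9 CPM in WT VEH and 583.7 and 618.6 in TAU VEH, and the neuronal markers summed to 2890 and 3066 against 2688 and 2528, with 2 of 7 lower. With the choroid plexus mean as a covariate no member and no gene of the table was called (Vamp2 -0.47 and Syn1 -0.40). The choroid plexus sums did not overlap between these groups (3143 and 2190 CPM against 462.6 and 544.1). The covariate therefore cannot be told apart from the contrast. The part of these markers in the result was not tested otherwise. Library size alone as the scaling raised the median of all genes by 0.15, and 16 members were then called higher and 4 lower, beside 2578 and 1020 of the 16820 genes; Vamp2 and Syn1 were lower under each scaling. The number of members called was 8 without WT VEH replicate 1, 6 without replicate 2, 5 without TAU VEH replicate 1 and 6 without replicate 2, and Vamp2, Syn1 and Stxbp5l were called in each of these fits.

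TAU MOL and TAU VEH mice were compared to ask what CSP-TTK21 changed in trained TAU mice. No member was called, and neither was any gene of the table (0% of 16820 higher and 0% lower). Of the members 11 had an unadjusted p under 0.05, as had 1064 of all genes, and DESeq2 called 0 members (32 genes higher and 20 lower in all). The median log2 fold change was 0.001 over the members and 0.009 over all genes. The libraries of the groups were apart for 15 members higher and 15 lower in TAU MOL, where 21.5% and 17.4% of all genes were apart in these directions.

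The smallest unadjusted p among the members, 0.00314, was that of Sv2b, the SV2 isoform of excitatory forebrain neurons. It read 308.4 and 293.0 CPM in TAU MOL against 360.6 and 408.8 in TAU VEH (log2 fold change -0.36, SE 0.096, adjusted p = 0.41). Testing every gene with at least 1 count made Sv2b the single member called, with an adjusted p of 0.0031. Stxbp5l read 30.92 and 30.67 CPM against 36.94 and 36.68 (-0.26, SE 0.072, adjusted p = 0.42). Cplx3, a complexin of ribbon synapses and some cortical neurons, read 5.253 and 4.339 CPM against 3.159 and 3.397 (0.56, SE 0.20, adjusted p = 0.66). Syn3, the third synapsin, read 10.46 and 11.85 CPM against 8.884 and 8.378 (0.37, SE 0.13, adjusted p = 0.64). In these 4 genes the libraries of the groups did not overlap, yet none passed over the whole table.

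The genes called in TAU VEH against WT VEH were next read in TAU MOL; the comparisons share the TAU VEH libraries, so they are not independent. Vamp2 read 1519 and 1534 CPM in TAU MOL, between the values of TAU VEH and WT VEH (TAU MOL against TAU VEH 0.16, SE 0.077, adjusted p = 0.82). Syn1 read 801.4 and 799.3 CPM, like the TAU VEH values of 811.9 and 795.9 (-0.01, SE 0.076). Syp stood at 0.01, Cplx1 at 0.02, Sv2a at 0.09, Syt3 at 0.01 and Vamp8 at 0.29. The 3 genes higher in TAU VEH stood at -0.26 (Stxbp5l), -0.10 (Stx17) and -0.03 (Stxbp5). The SE of these differences was 0.060 to 0.091 apart from Vamp8 (0.17). Stxbp5l at -0.26 did not pass and no gene of the table was called. Changes of several times the SE could thus also be missed with 2 mice per group.

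The remaining core genes did not pass between TAU MOL and TAU VEH: Snap25 (-0.18), Snap47 (-0.17), Syt1 (-0.17), Syn2 (-0.24), Cplx2 (-0.12), Stx1a (-0.16), Vamp1 (0.04), Vamp3 (0.18), Stx3 (0.09), Sv2c (0.01), Syt4 (-0.09), Syt7 (0.13), Syt11 (-0.03), Syt12 (0.12), Syt17 (-0.12) and Stxbp6 (-0.05). The widest value, 1.49 for Stxbp3b (SE 0.55), comes from 10 and 12 counts against 5 and 2. No cell type marker was called in this comparison either, but several lists lay to one side. All 14 choroid plexus markers were above 0, as were all 5 CA1 markers, which summed to 851.3 and 853.4 CPM in TAU MOL against 583.7 and 618.6 in TAU VEH. All 6 interneuron markers were above 0 (median 0.24), and all 7 CA3 and CA2 markers were below 0, with sums of 1440 and 1539 CPM against 1744 and 1696. The part of these markers in the members' values was not tested.

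TAU MOL was also set against WT VEH, a comparison that shares the WT VEH libraries with those above. Of 56 members, 0 were called higher and 4 lower (7.14%), against a background of 0.612% of genes higher and 5.02% lower. They included Syn1 and Vamp2, so transcripts of the reserve-pool tether and the vesicle SNARE of fast release were below WT VEH in treated TAU mice too. Syn1 fell by 0.50 on the log2 scale (SE 0.076, adjusted p = 0.00993) and Vamp2 by 0.40 (SE 0.077, adjusted p = 0.0158). In CPM, Syn1 read 801.4 and 799.3 in TAU MOL against 1097 and 1166 in WT VEH, and Vamp2 1519 and 1534 against 2020 and 1999. In both genes the libraries of the 2 groups did not overlap. The same held for 17 members higher and 16 lower in TAU MOL, and over all 16820 genes for 4303 higher and 4520 lower.

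Other members of the TAU VEH difference did not pass in TAU MOL against WT VEH: Syp (-0.28, adjusted p = 0.069), Cplx1 (-0.27, adjusted p = 0.0531), Sv2a (-0.19, adjusted p = 0.0998), Syt3 (-0.24), Vamp8 (-0.31), Stxbp5l (0.24), Stx17 (0.23) and Stxbp5 (0.21). Snap25 (-0.09), Syt1 (0.02), Cplx2 (-0.09), Syn2 (-0.16), Sv2b (-0.08), Stx1a (-0.30) and Vamp1 (-0.09) did not pass either. Whether these values differ from those of TAU VEH against WT VEH is the TAU MOL against TAU VEH comparison above, in which none was called. Leaving out either library of WT VEH or of TAU MOL left 0 members called, as did the choroid plexus covariate and the correction for GC content and length. Of the 14 choroid plexus markers 8 were called lower in TAU MOL. Their sums did not overlap between these groups, so the covariate cannot be told apart from the contrast. Their part was not tested otherwise. Library size alone gave 3 members higher and 2 lower, beside 757 and 326 of all genes, with the median of all genes raised by 0.12.

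**Figure D4:**
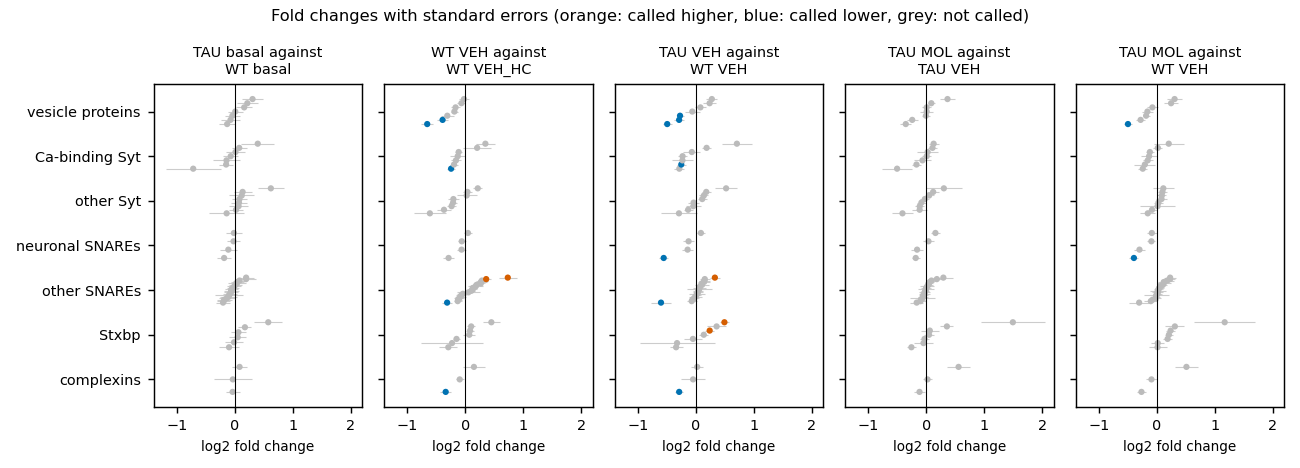
Log2 fold change of the members in the 5 comparisons, arranged by the 7 families, with bars of 1 SE; orange marks members called higher, blue those called lower and grey the rest. Calls are absent at rest and between TAU MOL and TAU VEH, and in TAU VEH against WT VEH blue points outnumber orange ones.

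The wider release machinery was read from 49 further genes: vesicle transporters and membrane proteins, active zone and priming factors, the proteins that take SNARE complexes apart, and those that retrieve vesicle membrane. At rest and between TAU MOL and TAU VEH 0 of the 49 were called. With training 1 was higher and 6 were lower, where 5.35% and 3.05% of all genes were called. The higher one was Picalm, a clathrin adaptor (log2 fold change 0.28). The lower ones included Nsf, the ATPase that takes used SNARE complexes apart (-0.33, SE 0.079, adjusted p = 0.0333), Unc13a, which primes vesicles (-0.30, adjusted p = 0.0173), Rimbp2, an active zone scaffold (-0.30, adjusted p = 0.0338), and Snap91, an adaptor of vesicle retrieval (-0.30, adjusted p = 0.0421).

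In TAU VEH against WT VEH, 4 of the 49 were higher and 16 lower, where 3.61% of all genes were called higher and 10.8% lower. Slc17a7, the transporter VGLUT1 that loads glutamate into vesicles, read 3516 and 3739 CPM in WT VEH against 2350 and 2337 in TAU VEH (log2 fold change -0.63, SE 0.097, adjusted p = 0.0018), and the groups were far apart. Rims4, an active zone protein, stood at -0.60 (adjusted p = 0.00142), Scamp5, a vesicle membrane protein, at -0.51 (adjusted p = 0.0015) and Doc2b, a calcium sensor of spontaneous release, at -0.43 (adjusted p = 0.0134). By list, 6 of 12 transporters and membrane proteins were lower, 8 of 23 active zone and priming factors were lower and 3 higher, 2 of 10 endocytosis genes were lower, and 1 of 4 disassembly genes was higher. In TAU MOL against WT VEH, 0 were higher and 8 lower (all genes 0.612% and 5.02%), led by Slc17a7 (-0.68, adjusted p = 0.00993), the active zone scaffold Bsn (-0.47, adjusted p = 0.00996), Scamp5 (-0.43, adjusted p = 0.0115) and dynamin Dnm1 (-0.39, adjusted p = 0.0117).

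The GC content of the exons ran along with these fold changes. In TAU VEH against WT VEH, Spearman's rho between GC content and log2 fold change was -0.64 over the 56 members and -0.52 over 16780 genes. The 3 members called higher had a median GC content of 42.3% and the 9 called lower 54.1%, where the medians over all genes called were 44.0% and 57.1%. Vamp2 has 54.9% GC and Syn1 57.8%, against 39.4% in Stxbp5l, 42.3% in Stxbp5 and 44.2% in Stx17. The rho was -0.61 over the members in TAU MOL against WT VEH, -0.39 with training, 0.30 in TAU MOL against TAU VEH and -0.36 at rest; over all genes it was -0.47, -0.28, 0.23 and -0.30. These correlations are across genes of shared libraries and serve as description. With counts corrected for GC content and length in each library, 3 members were still called in TAU VEH against WT VEH, all lower and among them Vamp2 (-0.40, adjusted p = 0.0248), and Syn1 was not.

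**Figure D5:**
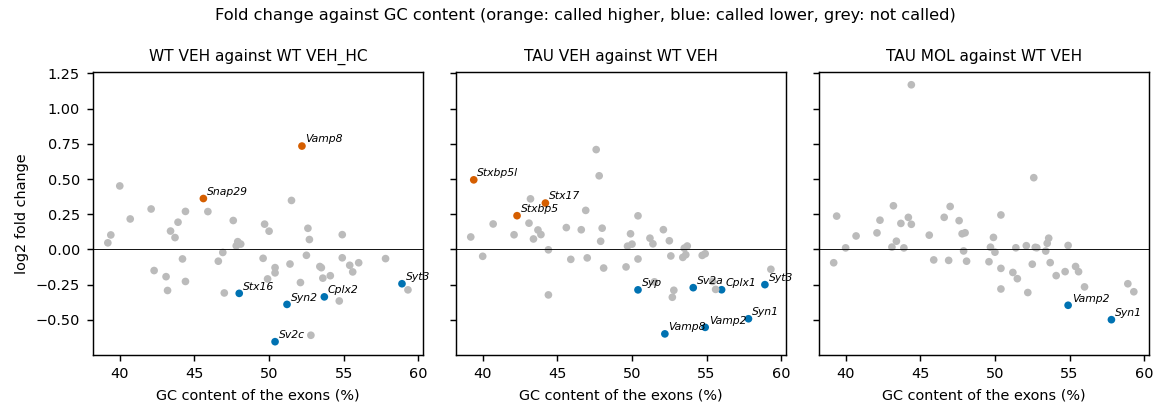
Log2 fold change of the members against the GC content of their exons in percent, for training, TAU VEH against WT VEH and TAU MOL against WT VEH; orange marks members called higher, blue those called lower and grey the rest. In TAU VEH against WT VEH the members called higher lie at low GC content, Stxbp5l at 39.4%, and most called lower at higher GC content, Syn1 at 57.8%.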

How the data were processed

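RNA-seq counts of 14 libraries of mouse dorsal hippocampus were analysed, in 2 tables that were fitted apart, with groups taken from the sample labels. The authors made poly-A, unstranded, single-end libraries, aligned reads to mm9 with TopHat2 2.0.10 and Bowtie2 2.1.0, and counted unique reads per Ensembl gene with HTSeq 0.5.4p3; CASAVA 1.8.2 is named for the base calls in the submitters' processing notes. The deposited raw counts were used for all tests. The authors also deposited a normalized signal (each library's counts over its own single factor), which was not tested. Neither table had a column without a sample (0), and 138 lines without values were left out. The authors excluded 3 further learning libraries, of mice from the same litter, after seeing great variability between samples. These 3 libraries were not analysed here.

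Genes kept by filterByExpr were tested with edgeR 4.0.16 in R 4.3.3 (TMM, quasi-likelihood F test, Benjamini-Hochberg adjustment over all genes tested), with all 9 learning libraries in 1 fit. The p-values test a difference between groups against a spread estimated from all libraries of a fit, with information shared across genes. With 2 or 3 libraries per group this spread rests on few mice. Each SE given is the absolute log2 fold change divided by the square root of the F statistic of that test. Among the libraries kept, the common coefficient of variation was 0.129 in the basal and 0.084 in the learning table. The spread between mice, more than depth, thus limits the abundant genes. In the learning table that spread is read after the authors' exclusion of variable libraries. CPM values carry TMM scaling, and CPM per kb uses the union of exons. Alternatives were DESeq2 1.42.0, its size factors, library size alone, every gene with at least 1 count, only the libraries compared, the replicate number as a block, loess correction (span 0.3) for GC content and length, the choroid plexus mean as a covariate, no fold change limit, the longest transcript for lengths, and leaving out each library. GC content and positions came from the NCBIM37 (mm9) annotation, with GC content for 99.8% of genes. Named in each comparison were the core members of each family, up to 12 called members with the largest fold change and a mean of at least 100 counts, and up to 4 of the 49 further genes; Syt9, Syt14, Stxbp3b, Stxbp5l at rest and in TAU MOL, Stx5a and Syt6 for their promoters, Picalm, and members followed across comparisons were named after their values were seen. The members and lists were chosen with earlier results of these data known. Some members are not reported here by name and not drawn, but stay in the counts. Tests were checked on simulated counts. Python 3.11.15, pandas 2.3.3, numpy 2.4.6, scipy 1.17.1 and matplotlib 3.10.9 served for tables and figures.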

Additional observations from a re-analysis of the deposited data

How the results depend on the processing

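At rest 0 members were called under each of the 14 alternatives. With training the count of 7 became 13 with DESeq2, 14 without the filter, 2 with only the libraries compared, 4 with GC and length offsets, 0 with the choroid plexus covariate and 0 to 17 on leaving out a library. In TAU VEH against WT VEH the count of 12 became 20 with library size alone, 3 with GC and length offsets, 5 with these and the replicate block, 0 with the choroid plexus covariate and 5 to 8 on leaving out a library. In TAU MOL against TAU VEH the count was 0, and 1 without the filter. In TAU MOL against WT VEH the count of 4 became 8 with DESeq2, 8 without the filter, 0 with GC and length offsets, 1 with these and the replicate block, 0 with the choroid plexus covariate and 0 to 0 on leaving out a library. The covariate and the offsets alter the values themselves. In each learning comparison the choroid plexus sums did not overlap between the groups, so the covariate cannot be told apart from the contrast there. The cause was not tested beyond that. A fit with the replicate number as a block called 20 members with training, 14 in TAU VEH against WT VEH and 6 in TAU MOL against WT VEH, and 0 in the other 2 comparisons. Replicate number 3 occurs only in WT VEH_HC, and at rest only in WT basal, so the block took that library out of the contrast. Leaving out WT VEH_HC replicate 3 without a block called 17 members with training. Same-numbered libraries deviated together with correlations of 0.014 and 0.073, 0.106 and 0.106, and 0.037 in these comparisons and -0.065 and -0.161 at rest. In a group of 2 libraries the deviations mirror each other, so these correlations cannot decide on a pairing. The labels state no shared litter or day, and whether the numbers mark one is not known. Over all genes, the block called 1892 higher and 1108 lower with training (900 and 513 without it), and the GC and length offsets called 78 higher and 368 lower in TAU VEH against WT VEH (608 and 1815 without them).

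The median log2 fold change of the members lay between -0.11 and 0.15 under all alternatives. In TAU VEH against WT VEH it moved by at least its SD between replicates in 8 of 13 alternatives. It did so in 6 of 13 at rest and in each TAU MOL comparison, and in 1 of 14 with training. At rest it was 0.014 with library size alone, -0.033 with offsets and block, 0.024 with the covariate and -0.017 to 0.040 on leaving out a library. With training it was 0.016 with the covariate. In TAU VEH against WT VEH it was 0.018 with DESeq2, 0.018 with its size factors, 0.15 with library size alone, 0.015 with only the libraries compared, -0.093 with the covariate and -0.027 to 0.022 on leaving out a library. In TAU MOL against TAU VEH it was -0.026 with library size alone, -0.014 with only the libraries compared, -0.0051 with offsets, -0.0073 with offsets and block, 0.018 with the covariate and -0.0046 to 0.0097 on leaving out a library. In TAU MOL against WT VEH it was 0.13 with library size alone, -0.029 with offsets, -0.031 with offsets and block, -0.056 with the covariate and -0.020 to 0.016 on leaving out a library.

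Of 501 single values recomputed for named genes, 311 kept their call, 183 kept their direction and lost the call, and 7 changed sign. With training and the covariate these were Syn2 (0.33), Cplx2 (0.15), Stx16 (0.41), Nsf (0.13) and Snap91 (0.076). In TAU VEH against WT VEH it was Syt3, at 0.047 with offsets and 0.048 with offsets and block. Precision was lowest for members with few counts, such as Stxbp3b (SE 0.55 between TAU MOL and TAU VEH).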
